A study of Mus musculus with 9 samples.

Results

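Sox9, Acan, Comp, Matn1, Matn3, Hapln1, Chad, Prg4 and Cilp code for the regulator and the non-collagen matrix proteins of cartilage and of the joint surface, and they were examined here in the mandible. They were taken by gene symbol from the deposited count table and make up 9 of its 27179 genes. Poly(A) RNA was sequenced from whole mandibles, teeth included, in 2 groups, 5 WT mice and 4 labelled FcγRIIB-/-. Each mouse was 6 months of age, 1 library was made per mouse, and the second group by its label lacks FcγRIIB, the inhibitory receptor for IgG. The study's methods name FcγRIIB-/- males on a C57BL/6 background, and WT controls whose strain and sex they do not state separately. Whole mandibles were pulverized, so the condyle with its cartilage is 1 tissue among bone, teeth, marrow, muscle and gum.

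Cartilage is built by chondrocytes, which secrete a network of type II collagen that holds large aggrecan molecules bound to hyaluronan. SOX9 is the transcription factor that turns on this program, and the matrix proteins studied here link, cross-bridge or lubricate the network. The mandibular condyle is covered by fibrocartilage under a fibrous, lubricated surface, and some of these genes are also used outside cartilage, as Comp is in tendon and Sox9 in glands.

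The libraries held 21453880 to 28991631 counts on genes. Fcgr2b, the gene named in the label, stood at 24.0 ± 8.28 CPM (counts scaled to library size; SD, n = 5) in WT and 27.8 ± 2.90 CPM (SD, n = 4) in the libraries labelled FcγRIIB-/-, with a log2 fold change of 0.21 ± 0.20 (SE) and an adjusted p of 0.442 by edgeR's quasi-likelihood test. The label was therefore not borne out by the level of this gene, although reads on exons outside a deletion would not show it, and every direction below is by label. The summed levels of genes of some other tissues of the mandible moved with the label. The summed level of 9 myeloid marrow genes was 1127 to 3394 CPM in WT and 139 to 418 CPM in the libraries labelled FcγRIIB-/-, and that of 6 erythroid genes was 410 to 660 against 65.3 to 105 CPM. Of these 6, Ank1 was not called (log2 fold change -0.18). It held 91.9 of the 96.6 CPM in replicate 1 labelled FcγRIIB-/- and 52.0 of the 105 CPM in replicate 4. The other 5 were called lower, with log2 fold changes from -4.84 to -3.65. The sum of 8 skeletal muscle genes was 6139 to 14286 against 14517 to 25252 CPM, and that of 4 adipocyte genes 49.2 to 88.7 against 114 to 166 CPM, so these 4 sums did not overlap between the groups. The adipocyte sum was mostly Fabp4, with means of 68.2 against 141 CPM. Adipoq went the other way with no overlap, at 3.72 against 1.29 CPM. Cidec was not called (log2 fold change 0.02), and Plin1 did not pass the filter on low counts (0.418 against 0.0823 CPM). The adipocyte genes thus had no shared direction. Hard-tissue sums overlapped between the groups. They were 27234 to 42851 against 29057 to 40303 CPM for osteoblast and osteocyte genes and 3561 to 7915 against 6427 to 8701 CPM for odontoblast genes. The sum of 7 genes of keratinized epithelium overlapped, at 3108 to 7087 against 4226 to 5186 CPM, but 5 of the 7 were lower with no overlap, among them Lor at 376 ± 258 CPM (SD, n = 5) against 3.51 ± 0.760 CPM (SD, n = 4). The part of these shifts in the values below was not tested, and in such bulk RNA fewer cells of a type and less RNA per cell cannot be told apart.

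Promoter sequences are shown for Acan, Chad and Hapln1. From mouse to mouse the levels of Acan and Chad varied together closely, and Hapln1 less so, as described further on. Each window runs from 250 bases before to 50 after the RefSeq start in GRCm38.p6, on the plus strand, at chr7:79052976-79053275 for Acan, chr11:94564797-94565096 for Chad and chr13:89540386-89540685 for Hapln1. The Hapln1 window is set on a start that lies inside the gene, downstream of the outermost position given for the gene further on. Capitals mark 2 kinds of short motif, found on either strand: the GC box GGGCGG or its reverse CCGCCC, and the TATA box TATAAA or its reverse TTTATA.
Acan: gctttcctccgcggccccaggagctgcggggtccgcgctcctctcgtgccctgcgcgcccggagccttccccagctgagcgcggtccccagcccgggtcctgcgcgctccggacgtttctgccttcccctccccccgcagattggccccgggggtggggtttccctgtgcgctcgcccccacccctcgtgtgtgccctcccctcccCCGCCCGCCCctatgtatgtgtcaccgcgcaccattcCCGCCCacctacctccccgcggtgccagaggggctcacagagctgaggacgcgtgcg
Chad: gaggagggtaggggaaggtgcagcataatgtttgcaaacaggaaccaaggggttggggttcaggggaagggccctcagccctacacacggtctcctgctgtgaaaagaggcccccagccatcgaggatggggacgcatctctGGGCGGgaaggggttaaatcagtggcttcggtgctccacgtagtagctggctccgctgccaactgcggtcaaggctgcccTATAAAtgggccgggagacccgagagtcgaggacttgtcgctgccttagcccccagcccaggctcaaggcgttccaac
Hapln1: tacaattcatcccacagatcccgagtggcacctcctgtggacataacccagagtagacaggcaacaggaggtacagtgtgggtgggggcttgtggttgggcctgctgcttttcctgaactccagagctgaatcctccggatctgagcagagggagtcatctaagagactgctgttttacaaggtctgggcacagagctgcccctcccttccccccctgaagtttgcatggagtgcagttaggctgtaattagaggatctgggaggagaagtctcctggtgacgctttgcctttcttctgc

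Acan held 3 GC boxes, at -44, -40 and -7 bases from the start, the first and second of which overlap. Chad held 1 GC box at -108 and a TATA box at -28, and Hapln1 held neither. Of 32851 mouse promoters in the same table, 35.7% had a GC box and 13.6% a TATA box. The core letters bound by SOX proteins, searched as ACAAAG or ACAATG and their reverses CTTTGT and CATTGT, were in 28.6% of all promoters and in none of the 6 members matched, which were Acan, Chad, Hapln1, Matn1, Matn3 and Cilp. A match is a description of letters, and its absence from these windows says nothing of more distant sites. The promoters of Sox9, Comp and Prg4 were not analysed here.

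Of the 9 genes, 7 passed the filter on low counts and were tested. Only Prg4 was called by edgeR at an adjusted p under 0.05, and it was higher in the libraries labelled FcγRIIB-/-. None was called lower by edgeR or by DESeq2, and 0 were lower at an unadjusted p under 0.05. Over all 16329 genes tested, edgeR called 33.3%, 14% higher and 19.3% lower, DESeq2 called 37%, and 44.2% had an unadjusted edgeR p under 0.05. All 7 log2 fold changes were above 0, with a median of 0.40 against 0.01 for all genes tested. Without replicate 2 of the group labelled FcγRIIB-/-, Acan stood at -0.59 and Hapln1 at -0.14, and Acan stood at -0.06 without WT replicate 1, so the shared sign rests on single mice. The groups overlapped for each of the 7, while 29.6% of all genes tested had no overlap.

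**Figure D1:**
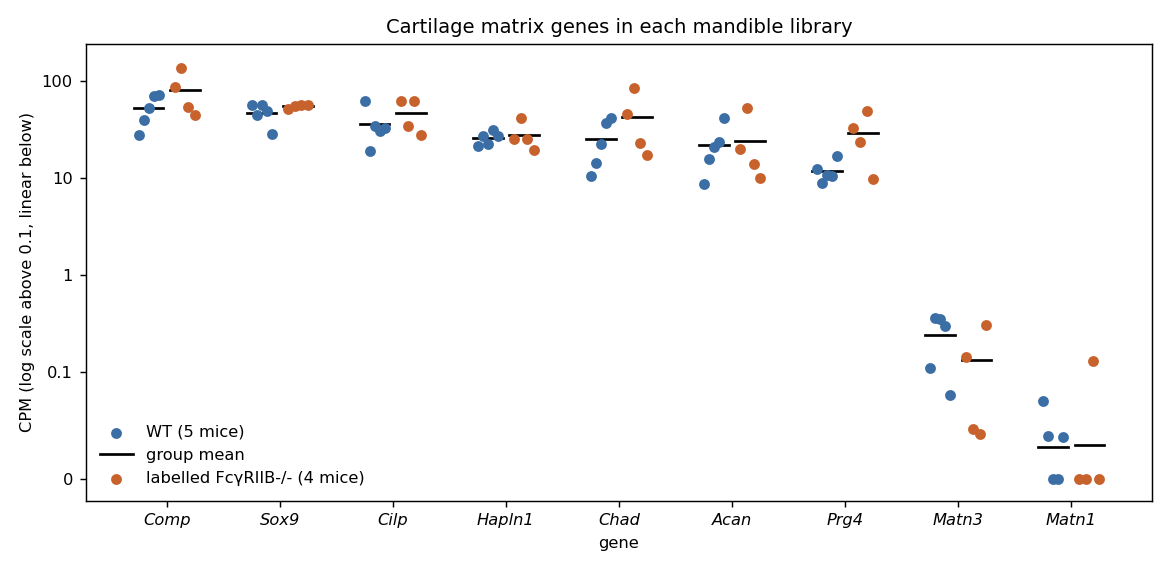
Level of each of the 9 genes in each library, in CPM on an axis that is logarithmic above 0.1 and linear below. Points are mice (blue WT, n = 5; orange labelled FcγRIIB-/-, n = 4) and bars are group means. The groups overlap for every gene, and Matn3 and Matn1 lie far below the other 7.

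Levels were compared between genes per kilobase of exon. In WT mandibles Comp stood highest at 17.5 CPM per kb, followed by Chad at 14.9, Sox9 at 11.3 and Cilp at 8.35. Hapln1 stood at 4.33, Acan at 2.93 and Prg4 at 2.75 CPM per kb. Matn3 at 0.0789 and Matn1 at 0.0152 CPM per kb closed the order. Col2a1, the main collagen of cartilage, stood at 12.3 CPM per kb on the same scale. The ranges over the 5 WT mice overlapped between each neighbouring pair in this order from Comp to Prg4 and between Matn3 and Matn1. The genes were measured in the same mice, so overlapping ranges do not settle whether those neighbours differ, and this was not tested. Prg4 and Matn3 did not overlap.

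Sox9 (chr11:112782210-112787757, GRCm38), the regulator of the chondrocyte program, was the steadiest of the tested genes. Its levels were 56.8, 44.3, 55.9, 48.5 and 28.5 CPM in WT and 50.8, 55.5, 56.4 and 56.9 CPM in the libraries labelled FcγRIIB-/-. One WT mouse lay low and the other 8 libraries were close together. The log2 fold change was 0.23 ± 0.17 (SE), with a 95% interval of -0.14 to 0.60 and an adjusted p of 0.313 by edgeR.

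Acan (chr7:79053226-79115099) codes for aggrecan, the proteoglycan that gives cartilage its swelling pressure. It measured 8.66, 15.6, 20.6, 23.2 and 41.5 CPM in WT, resting on 239 to 1063 counts. The libraries labelled FcγRIIB-/- gave 19.8, 52.3, 13.8 and 9.88 CPM. Both groups thus spanned nearly the whole range, which was 6.04-fold from the lowest to the highest mouse. The log2 fold change was 0.13 ± 0.51 (SE; adjusted p = 0.867, edgeR). Its 95% interval ran from -0.99 to 1.25, a range too wide to tell a rise from a fall.

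Hapln1 (chr13:89540529-89611832), the link protein that ties aggrecan to hyaluronan, had levels of 21.0, 26.8, 22.2, 31.1 and 26.8 CPM in WT. In the libraries labelled FcγRIIB-/- it had 25.4, 41.1, 25.2 and 19.2 CPM, so that the highest and the lowest mouse of all 9 were both in this group. The log2 fold change was 0.12 ± 0.20 (SE; adjusted p = 0.680, edgeR).

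Comp (chr8:70373548-70382066) codes for cartilage oligomeric matrix protein, a collagen-binding protein of cartilage and tendon. Levels were 27.4, 39.2, 51.9, 69.9 and 71.2 CPM in WT and 87.2, 135.9, 53.7 and 44.0 CPM in the libraries labelled FcγRIIB-/-. A pair of these mice lay above all WT mice and the other two lay within the WT range. The log2 fold change was 0.63 ± 0.35 (SE; 95% interval -0.14 to 1.40), with an adjusted p of 0.189 by edgeR.

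Chad (chr11:94565047-94569127), which codes for chondroadherin, a leucine-rich protein through which chondrocytes attach to matrix, had the widest span of the tested genes at 8.08-fold. WT mice gave 10.4, 14.2, 22.4, 36.9 and 41.6 CPM. Mice labelled FcγRIIB-/- gave 45.9, 83.7, 23.1 and 17.2 CPM, again with a pair above all WT mice and a pair inside their range. The log2 fold change was 0.76 ± 0.50 (SE; 95% interval -0.34 to 1.86; adjusted p = 0.261, edgeR).

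Prg4 (chr1:150449412-150466221) codes for lubricin, the lubricant of joint surfaces made by superficial chondrocytes and synovial cells. It measured 12.2, 8.79, 10.6, 10.4 and 16.7 CPM in WT and 32.8, 23.5, 48.8 and 9.78 CPM in the libraries labelled FcγRIIB-/-. Of the mice labelled FcγRIIB-/-, 3 lay above all WT mice and the fourth lay among the lowest of the 9. The log2 fold change was 1.29 ± 0.36 (SE; 95% interval 0.49 to 2.09), with an adjusted p of 0.0204 by edgeR and 0.0113 by DESeq2. Without replicate 3 of the group labelled FcγRIIB-/-, the highest mouse, the log2 fold change was 0.91 and the adjusted p was 0.0685 by edgeR, so the call rests on that mouse.

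Cilp (chr9:65265180-65280614), a protein of the middle layer of cartilage that is also made in fibrous tissue, had 61.7, 18.9, 33.8, 30.6 and 32.5 CPM in WT. The libraries labelled FcγRIIB-/- had 62.2, 34.5, 62.6 and 27.7 CPM. High mice occurred in both groups, and the log2 fold change was 0.40 ± 0.33 (SE; adjusted p = 0.373, edgeR).

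Matn1 (chr4:130944385-130955476) and Matn3 (chr12:8947929-8972028) code for matrilins, adaptor proteins of the cartilage collagen network that serve as markers of chondrocytes. Matn1 had 2, 1, 0, 0 and 1 counts in WT and 0, 0, 3 and 0 counts in the libraries labelled FcγRIIB-/-. Matn3 had 3, 9, 9, 8 and 2 counts against 4, 1, 1 and 6. Neither passed the filter, and no fold is given for Matn1, which was at or under 3 counts in every library, a floor equal to 0.105 to 0.152 CPM depending on depth. For Matn3 the mean was 0.238 CPM in WT and 0.133 CPM in the other group, with a two-sided exact permutation p of 0.270 over 126 assignments (smallest possible p 0.00794), and for Matn1 the exact permutation p was 1. Of the 9 chondrocyte markers listed for the check of tissue (Col2a1, Acan, Sox9, Matn1, Matn3, Hapln1, Col9a1, Col11a2 and Comp), 7 passed the filter on low counts and these 2 were at or near 0, so the name cartilage matrix genes describes what the genes are known for and not a pure tissue.

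**Figure D2:**
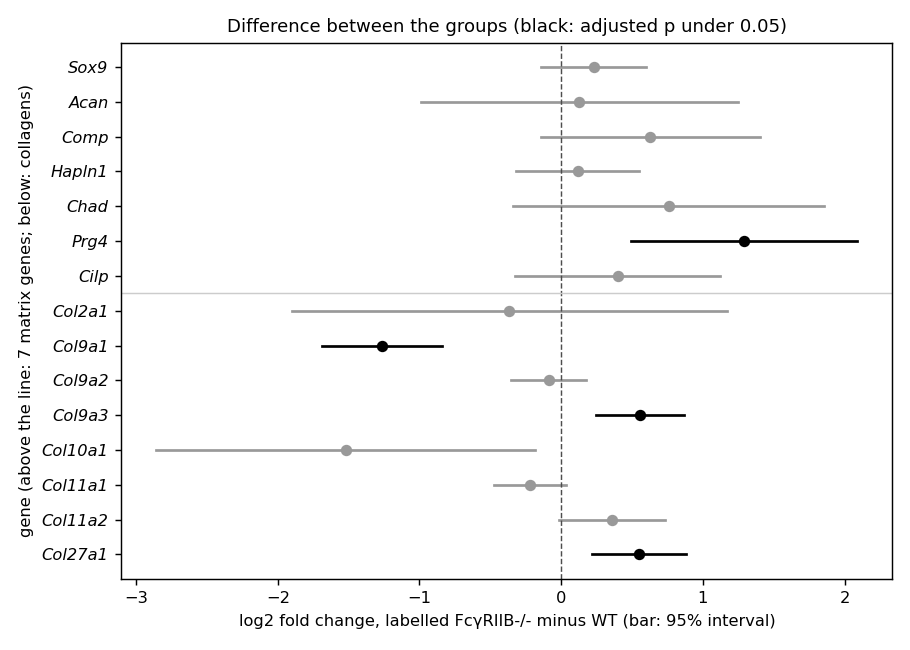
log2 fold change, labelled FcγRIIB-/- minus WT, of the 7 tested genes and of 8 cartilage collagens, with 95% intervals from edgeR (points and bars, black at an adjusted p under 0.05). Prg4, Col9a1, Col9a3 and Col27a1 are called, and the intervals of Acan, Chad and Col2a1 are among the widest.

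The mice of 1 group differed more in these genes than in most others. The SD of log2 CPM within groups had a median of 0.65 over the 7 genes and 0.18 over all genes tested. Only 1.30% of all genes had a larger SD than Chad and 1.40% a larger SD than Acan. The share was 3.79% for Prg4, 4.73% for Comp and 5.96% for Cilp, and 21.4% and 25.1% for Hapln1 and Sox9.

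This spread was shared by some of the genes. With group means removed, Comp and Chad followed each other over the 9 mice with a Pearson r of 0.994 and a Spearman rho of 0.983 (exact permutation within groups, p = 0.000347, the smallest possible over 2880 orders, adjusted p = 0.00324 over 28 relations). The r was 0.993 without the 2 mice farthest from the median. Acan followed Comp with r = 0.957 and Chad with r = 0.954, and these were 0.914 and 0.922 without the 2 farthest mice. Acan, Comp, Chad and Hapln1 therefore ran in the same order of mice to a large degree: WT replicate 1 and replicate 4 of the group labelled FcγRIIB-/- lay lowest in their groups for all 4 genes, and replicate 2 of the latter group lay highest.

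Col2a1 (chr15:97975602-98004724) is no member of the set but codes for the collagen these proteins bind. It had 33.6, 137.5, 100.4, 146.0 and 150.7 CPM in WT and 58.8, 250.0, 23.5 and 20.4 CPM in the libraries labelled FcγRIIB-/-. It followed the same mice, with r = 0.912 with Acan, 0.909 with Comp, 0.899 with Hapln1 and 0.871 with Chad, and adjusted p of 0.0181, 0.0181, 0.00729 and 0.0181 by exact permutation. Without the 2 farthest mice these r were 0.787, 0.825, 0.731 and 0.767. Hapln1 with Comp gave r = 0.827 (exact permutation, adjusted p = 0.0401), while Hapln1 with Acan (r = 0.819, adjusted p = 0.0603) and with Chad (r = 0.806, adjusted p = 0.0540) missed the threshold in the same exact permutation test. Without the 2 farthest mice the r of Hapln1 was 0.713 with Comp, 0.640 with Acan and 0.630 with Chad. In all, 8 of 28 relations passed, and 10 by Spearman rho.

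**Figure D3:**
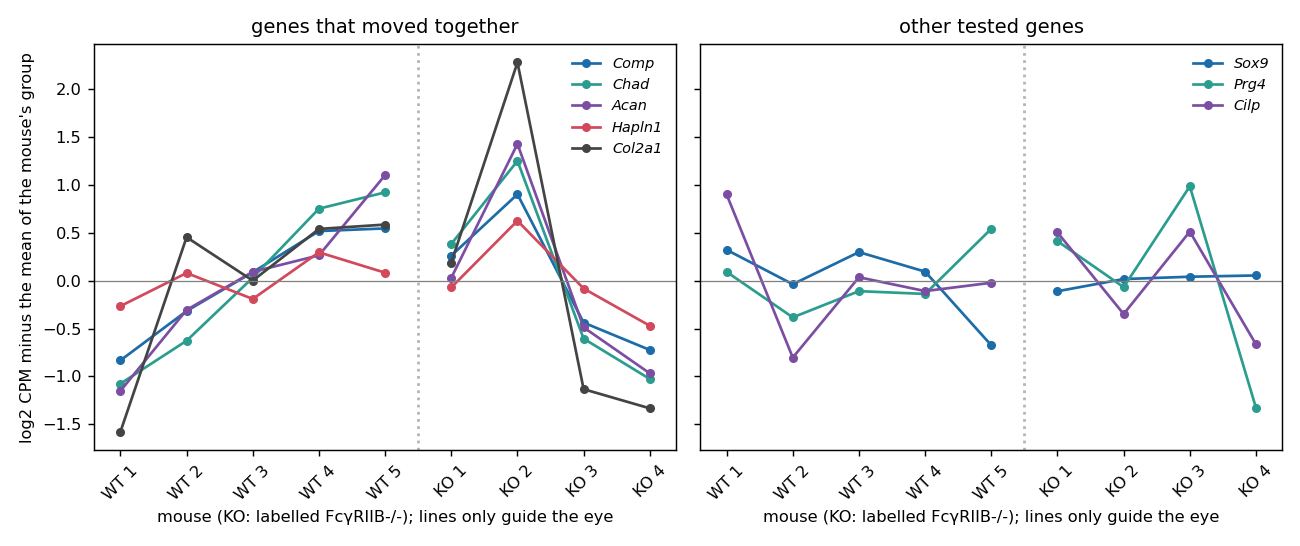
log2 CPM of each mouse minus the mean of its group, for Comp, Chad, Acan, Hapln1 and Col2a1 (left) and for Sox9, Prg4 and Cilp (right). Mice are on the horizontal axis, 5 WT and 4 labelled FcγRIIB-/- (KO), and lines only guide the eye. The left genes are lowest in WT replicate 1 and in replicate 4 labelled FcγRIIB-/- and highest in replicate 2 labelled FcγRIIB-/-, apart from some crossing in WT.

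Sox9, Prg4 and Cilp did not pass with any of these 5 genes. Sox9 had an r of -0.55 to 0.20 with the other 7 genes, and the mouse with the lowest Sox9, WT replicate 5, was the highest WT mouse for Acan, Comp and Chad. Without the 2 mice farthest from the Sox9 median, WT replicates 1 and 5, these r ran from -0.19 to 0.02. Prg4 and Cilp gave r = 0.684 with each other (exact permutation p = 0.0385, adjusted p = 0.0981). The summed levels of the 7 other cell type lists had r of -0.37 to 0.43 with the mean of Acan, Comp, Chad and Hapln1, a description over 9 libraries. Prg4 had an r of -0.78 with the osteoblast and osteocyte sum and 0.74 with the myeloid sum over the same libraries. That first sum was mostly Col1a1 (29165 of 30729 CPM in WT replicate 1), and Cilp had an r of -0.73 with it. Prg4 also had an r of -0.65 with the odontoblast sum and 0.53 with keratinized epithelium. With muscle, erythroid and adipocyte sums its r was -0.07 to 0.03. The part of any of these tissues in the Prg4 values was not tested.

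**Figure D4:**
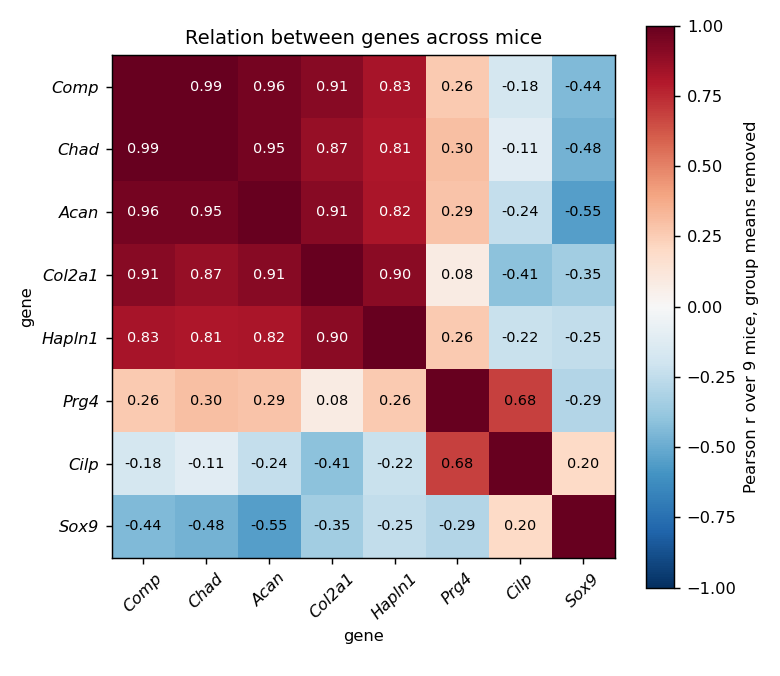
Pearson r between each pair of 8 genes over 9 mice after group means were removed, as coloured cells with the value printed. Comp, Chad, Acan, Col2a1 and Hapln1 form a block between 0.81 and 0.99, and Sox9 lies below 0 with every gene but Cilp.

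A count of list genes that run with this block was made after the values were seen. Of 67 tested genes in 6 wider cartilage lists, 6 had an r of at least 0.8 with the mean of Acan, Comp, Chad and Hapln1, or 8.96%, against 0.760% of 16325 genes tested. They were Snorc (r = 0.96), a proteoglycan of chondrocytes, Col2a1 (0.92), Clec3a (0.90), a C-type lectin of cartilage, the small leucine-rich proteins Prelp (0.86) and Fmod (0.80), and Chsy3 (0.80), an enzyme that builds chondroitin chains. Clec3a ran from 0.507 to 49.5 CPM and Prelp from 79.8 to 135.5 CPM over the 9 mice. Snorc rested on 0 to 24 counts per library. Most list genes did not run closely with the block: the median r was 0.28 over the 67, against -0.02 over all genes tested. Of the cartilage collagens other than Col2a1, Col10a1 had an r of 0.58, Col9a1 0.49 and Col11a1 0.17. The r was negative for Col9a2 (-0.20), Col9a3 (-0.22), Col11a2 (-0.37) and Col27a1 (-0.51).

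By the rule set for likeness, the genes closest to the mean z-score of all 7 tested members over the 9 libraries, among 12782 candidates, were Lrig3 (r = 0.99), Prpf4 (0.98), Pik3r1 (0.97), Sema3a (0.96), Adamtsl3 (0.96), Fgfr2 (0.95), Gtpbp8 (0.95) and Mbtps2 (0.94). The members themselves had r of 0.86 for Chad, 0.85 for Comp, 0.81 for Hapln1, 0.80 for Acan, 0.62 for Prg4, 0.28 for Cilp and -0.20 for Sox9 with that mean. The mean thus stands mainly for the block of 4 genes and less for Cilp or Sox9.

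Of 8 tested collagens that share the network with these proteins, 2 were higher and 1 lower, or 37.5% called, near the 33.3% over all genes. In WT, mean levels were 114 CPM per kb for Col11a2, 60.1 for Col11a1, 26.2 for Col27a1 and 15.7 for Col9a2. All of these lay above Col2a1 (12.3), while Col9a3 (6.90), Col10a1 (1.16) and Col9a1 (1.13) lay below it. How much of each level came from cartilage was not tested. Col9a1, a chain of the type IX collagen that coats type II fibrils, fell from 5.72 ± 0.981 CPM (SD, n = 5) in WT to 2.38 ± 0.528 CPM (SD, n = 4), a log2 fold change of -1.27 ± 0.19 (SE; adjusted p = 0.00128, edgeR) with no overlap. Col9a3, another chain of the same collagen, rose from 26.6 ± 5.56 to 39.2 ± 1.43 CPM (log2 fold change 0.56 ± 0.14, adjusted p = 0.0125, edgeR), and Col9a2, the remaining chain, had a log2 fold change of -0.09. Col27a1, a fibrillar collagen of cartilage and teeth, rose by a log2 fold change of 0.55 (adjusted p = 0.0190, edgeR), a call lost without replicate 4 of the group labelled FcγRIIB-/- (adjusted p = 0.0544, edgeR). Col2a1 (-0.37), Col11a1 (-0.22), Col11a2 (0.36) and Col10a1 (-1.52, adjusted p = 0.0762, edgeR), the collagen of hypertrophic chondrocytes, were not called by edgeR, while DESeq2 called Col10a1 lower (adjusted p = 0.0281).

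Of 17 tested genes for other cartilage matrix proteins, 1 was higher and 4 were lower, or 29.4% called, near the 33.3% over all genes. The chondrocyte-secreted Cytl1 rose (log2 fold change 1.06 ± 0.25 SE, adjusted p = 0.00931, edgeR). Vcan, the large proteoglycan versican, fell by 0.74 (adjusted p = 0.00363, edgeR), Itm2a by 0.55 (adjusted p = 0.00641, edgeR) and Cnmd, chondromodulin, by 0.96 (adjusted p = 0.0199, edgeR). Cnmd was not called without replicate 2 or without replicate 3 of the group labelled FcγRIIB-/-, and Fmod stood at 0.03 without a call. The list is mixed in direction, with a median of 0.03. Among 11 tested regulators of chondrocytes, Sox6, which works with Sox9 on cartilage genes, fell by 0.88 ± 0.16 (SE; adjusted p = 0.00257, edgeR) from 27.2 ± 4.65 to 14.7 ± 2.90 CPM. Zbtb20 rose by 0.72 (adjusted p = 0.00783, edgeR), the other 9 were not called, and Sox5, the partner of Sox6, had a log2 fold change of 0.03. The called share of the regulators was 18.2%, below the 33.3% over all genes.

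Of 13 tested genes that make the sugar chains carried by aggrecan, or hyaluronan, 6 were lower and 1 was higher, with a median log2 fold change of -0.35. Their called share was 53.8%, against 33.3% over all genes tested. Xylt1, which attaches the first sugar of the chain, fell by 1.18 ± 0.24 (SE; adjusted p = 0.00461, edgeR), and Chst3, a chondroitin sulfotransferase, by 1.08 ± 0.23 (SE; adjusted p = 0.00639, edgeR). Has2, a hyaluronan synthase, fell by 0.65 (adjusted p = 0.0151, edgeR) and the sulfate transporter Slc26a2 by 0.60 (adjusted p = 0.0101, edgeR). Papss2, which makes the active sulfate donor, rose by 0.58 ± 0.08 (SE; adjusted p = 0.000761, edgeR), and it is named because no other gene of the list was called higher. Among the 13, 1 gene lay higher and 6 lay lower with no overlap between the groups, where 12.1% and 17.5% of all genes tested did so.

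**Figure D5:**
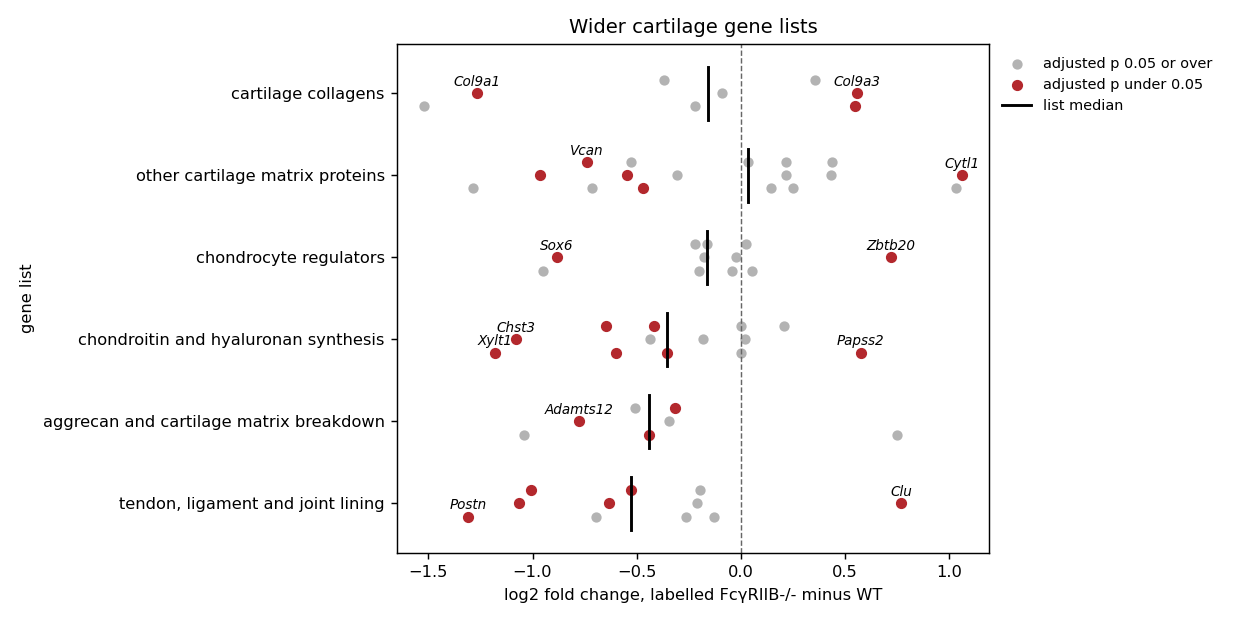
log2 fold change, labelled FcγRIIB-/- minus WT, of the tested genes in 6 cartilage lists (rows). Each point is a gene, red at an adjusted p under 0.05 by edgeR, and the vertical bars are list medians, from 0.03 for other matrix proteins to -0.53 for tendon, ligament and joint lining.

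Of 7 genes that break down aggrecan and cartilage matrix, 3 were lower and none higher by edgeR or DESeq2, and by unadjusted edgeR p under 0.05 there were 6 lower and 0 higher. Over all 16329 genes tested, edgeR called 19.3% lower, and 3933 were lower at an unadjusted p under 0.05. Adamts12 fell by 0.78 (adjusted p = 0.00698, edgeR), Htra1 by 0.44 (adjusted p = 0.0234, edgeR) and Adamts7 by 0.32 (adjusted p = 0.0492, edgeR). The Htra1 call was lost without replicate 2 or without replicate 4 of the group labelled FcγRIIB-/-, and the Adamts7 call was lost when any 1 of the 9 mice was left out. The aggrecanases Adamts4 (-0.51) and Adamts5 (-0.35) and the collagenase Mmp13 (-1.04, adjusted p = 0.0761, edgeR) were not called.

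Of 11 genes of tendon, ligament and joint lining, 5 were lower and 1 higher. The called share was 54.5%, against 33.3% over all genes tested. Postn, periostin of the periodontal ligament, fell from 8486 ± 2487 CPM (SD, n = 5) to 3426 ± 519 CPM (SD, n = 4; log2 fold change -1.31 ± 0.21 SE, adjusted p = 0.00159, edgeR). The fibroblast genes Dpp4 and Pi16 had log2 fold changes of -1.07 and -1.01 (adjusted p = 0.00146 and 0.00165, edgeR), and Clu, a secreted chaperone, rose by 0.77 (adjusted p = 0.0105, edgeR). Tnmd, a marker of tendon cells, fell by 0.53 (adjusted p = 0.0310, edgeR), a call lost in 7 of the 9 fits that left out 1 mouse. Scx, the tendon regulator, was not called. Over the 6 lists together 67 of 69 genes were tested, 6 were higher and 20 lower, with a median log2 fold change of -0.22, while the 7 tested members had a median of 0.40 and 1 call. Of all genes tested, 14% were called higher and 19.3% lower. Called genes in all tested genes split into 2289 higher and 3144 lower, or 42.1% higher, and this became 1309 and 3781, or 25.7% higher, when libraries were scaled by total counts alone.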

How the data were processed

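RNA was measured in 9 mandible libraries, 5 WT and 4 labelled FcγRIIB-/-. The deposited values are raw counts per gene, without normalization. Per the labels and the study's methods, the authors prepared stranded poly(A) libraries and used Trim Galore for trimming, HISAT (version 02.1.0 in the submitters' processing notes) for alignment to mm10 and featureCounts for counting. The annotation, the strand setting and the treatment of reads matching several genes are not given in the sources used here, so reads of overlapping genes may be shared. Samples were assigned from their labels, and nothing in labels or headers names a batch. The table held 1 column of per-sample values that matched no sample, and it was not used. Rows without a symbol, 1030 in all, kept their gene IDs in the fit and held 0.0852% to 0.110% of counts.

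The counts were analysed in R 4.3.3 with edgeR 4.0.16: filterByExpr (minimum count 10), TMM scaling, the quasi-likelihood test without covariates, and Benjamini-Hochberg adjustment over 16329 genes at 0.05. The size of a log2 fold change divided by the root of its F statistic gave its standard error, and log2 CPM used a prior count of 2. Mice are the replicates, and the labels do not describe litters or cages. DESeq2 1.42.0, other scalings and filters, a replicate block and leaving out each mouse were alternatives. Relations over mice used exact permutation within groups. Exon lengths are unions of GENCODE M21 exons, and positions and promoters are from RefSeq (GRCm38.p6). No pair of libraries was near-identical (0 pairs), and the test was tested on simulated data.

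The members, the gene lists and the choice of relations were made with earlier results of these data known. The genes named are the members, Fcgr2b, all cartilage collagens, up to 4 called genes with the largest change per further list, Mmp13, Adamts4, Adamts5, Sox5, Sox6, Vcan, Fmod, Tnmd and Scx, and the 8 genes most like the members. Papss2 and the genes that ran with Acan, Comp, Chad and Hapln1 were named after their values were seen.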

Additional observations from a re-analysis of the deposited data

Results flagged for a closer look

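Among the named genes, 100 group values were examined for a mouse far from the others of its group, and 10 stood out by the gap to the nearest mouse over the whole range. The limit used is passed by about 1 in 20 sets of independent, normally distributed values. CPM of genes that run together are not such values, so the 10 cannot be read against that share. Col2a1 stood at 250.0 CPM in replicate 2 labelled FcγRIIB-/-, against 20.4 to 58.8 CPM in the other mice of that group, and this mouse was also the highest for Acan, Comp, Chad and Hapln1. Matn1 was at 0.127 CPM in replicate 3 labelled FcγRIIB-/- and at 0 in the other mice of that group, which is a difference of 3 counts. WT replicate 2 stood high for Mmp13 (1413 CPM against 426 to 656), Col11a1 (967 against 682 to 750), Adamts4 (37.0 against 23.3 to 26.7) and Fcgr2b (38.3 against 17.0 to 23.1). WT replicate 5 stood high for Postn (12875 CPM against 6813 to 7941) and Htra1 (571 against 376 to 421). Fcgr2b stood at 32.1 CPM in replicate 4 labelled FcγRIIB-/- (others 26.0 to 26.6), and Has2 at 5.54 CPM in replicate 1 of that group (others 3.97 to 4.19).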

How the results depend on the processing

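Of 214 values over all settings, the count of members called higher was 0 instead of 1 without replicate 3 of the group labelled FcγRIIB-/- (0 to 1 over the fits without 1 mouse) and 0 at an adjusted p under 0.01. Prg4 had log2 fold changes of 0.912 to 1.58 over the fits without 1 mouse, and edgeR and DESeq2 adjusted p of 0.0113 to 0.0290 under the other settings. Acan fell to -0.06 without WT replicate 1 and to -0.59 without replicate 2 labelled FcγRIIB-/- (range -0.588 to 0.518), and Hapln1 to -0.14 without that replicate 2 (range -0.135 to 0.256). Chad ranged from 0.20 to 1.04 and Comp from 0.25 to 0.83 in the fits without 1 mouse, without a call. Scaling by total counts alone gave 1309 genes called higher, and a log2 fold change of at least 1 left 181 higher and 1069 lower. Apart from the fewer mice or stricter limits, the cause was not tested.

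The replicate numbers are shared by different mice, and same-numbered mice did not deviate together (r of -0.114 to 0.0969), so the numbers do not pair them. With a replicate block Prg4 kept its call (log2 fold change 1.27, edgeR adjusted p = 0.0290), all genes gave 1594 higher and 2410 lower, and the cartilage lists gave 5 higher and 22 lower. Depth limits Matn1 and Matn3, with 7 and 43 counts in all libraries together.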

Other observations

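The 8 genes whose levels were most like those of Prg4 over the 9 libraries, with group means removed, were chosen after its values were seen. They were Stip1 (r = 0.997), Hnrnpul2 (0.991), Ahctf1 (0.985), Hsph1 (0.985), Uba6 (0.978), Ahsa1 (0.978), St13 (0.977) and Vps36 (0.970). For Chad the closest gene was 1500015O10Rik (r = 0.92), and Clec3a was the lowest of the closest 8 with r = 0.89. These r describe 9 libraries, which share their scaling, and carry no test.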
